A study of Mus musculus with 12 samples.

Results

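Genes that steer activated CD8 T cells between blood, lymphoid organs and tissue were followed through 12 RNA sequencing libraries of mouse OT-1 CD8+ T cells. The set held 9 genes, chosen by symbol and matched by Ensembl identifier in GENCODE release M21 (GRCm38), out of 55487 identifiers in each of the 2 deposited count tables. They were the integrin subunits Itgal, Itgb2, Itga4, Itgb1, Itgb7 and Itgae, the selectin ligand Selplg, the hyaluronan receptor Cd44 and the sphingosine 1-phosphate receptor S1pr1. All 9 passed the low-count filter in both tables.

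OT-1 mice carry a transgenic T cell receptor against an ovalbumin peptide, and every library came from such cells grown with recombinant IL2. Female and Male, 3 libraries each, were splenic cells of the named sex kept for 3 days with beads against CD3 and CD28. WT and KD, 3 libraries each, were another batch of male cells that were electroporated and then cultured for 3 days. KD received Cas9 together with guide RNA against KDM5D, a Y-linked histone demethylase, and WT received the guide RNA by itself. No group received Cas9 without that guide, so effects of Cas9 and of lower Kdm5d cannot be told apart. The age of the mice and the number behind the libraries were not given, so the p-values measure the spread between these libraries, which may be technical.

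Integrins are pairs of an alpha and a beta chain that hold a cell to ligands on vessels, other cells or matrix. The αL chain with β2 forms LFA-1, which binds ICAM proteins. The α4 chain pairs with β1 to bind VCAM-1 and with β7 to bind MAdCAM-1 of gut vessels, and αE pairs with β7 to bind E-cadherin on epithelium. PSGL-1, encoded by Selplg, carries the sugars that selectins recognise during rolling, CD44 binds hyaluronan, and S1PR1 senses the lipid gradient that draws T cells out of lymphoid organs.

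Total counts ranged from 78748647 to 110803318 per library. The targeted gene followed the labels: Kdm5d was at 48.4 to 52.4 CPM (counts per 1000000 counts, after scaling) in WT, 21.4 to 22.9 CPM in KD and 49.5 to 52.2 CPM in Male, and the Female libraries held at most 2 counts of it. All 10 CD8 T cell markers were expressed in every group, with Cd8a between 499 and 621 CPM on average. The 29 markers of other cell types summed to 95.7 to 97.2 CPM in Female, 61.1 to 63.8 in Male, 56.0 to 57.4 in WT and 48.9 to 52.4 in KD. Most of each sum was Zbtb7b, and 12, 14, 9 and 11 of the 29 were at 0 in all libraries of those groups. Zbtb7b, listed as a CD4 T cell marker, averaged 39.8 to 85.1 CPM over the 4 groups, and Cd4 at most 0.182 CPM. The sums are therefore not read as an amount of other cells. The B cell marker Ms4a1 was at 0 throughout, while the B cell genes Cd79a and Cd79b averaged 0.809 to 0.990 CPM and 2.92 to 4.93 CPM over the 4 groups. The neutrophil markers S100a8 and S100a9 were at 0 throughout, while Ly6g averaged at most 0.354 CPM. The markers called lower in KD were Cd79b, Foxp3, Klrb1c, Ly6g and Xcr1, of which Xcr1 went from 2.78 to 1.05 CPM, Klrb1c from 1.41 to 0.772 CPM, Cd79b from 4.93 to 3.62 CPM and Ly6g from 0.354 to 0.0733 CPM. The platelet genes Pf4 and Ppbp were at 0.802 to 1.63 CPM in the Female libraries and at most 0.0226 CPM in the Male libraries, and their part in the sex comparison was not tested. The part of the markers lower in KD in the other comparison was not tested either. Col1a2, a stromal marker, was called higher in Male and in KD. It went from 0.1405 CPM in Female to 0.445 in Male, and from 0.288 CPM in WT to 0.620 in KD (edgeR adjusted p 0.00394 and 0.01645). Its part in the differences was not tested.

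Every gene of the set passed the test in both comparisons. Between Male and Female, 4 were higher and 5 lower in Male, where 49.8% of 20208 tested genes were called in either direction. Between KD and WT, 2 were higher and 7 lower in KD, where 35.1% of 20413 tested genes were called. These shares cover tested genes of all levels, also those with few counts, whereas each member held at least 512 counts in every library. No share was computed for genes of like counts, so 9 of 9 is not read as a feature of the set. Calls came from edgeR's quasi-likelihood test with a Benjamini-Hochberg adjusted p under 0.05. Their median log2 fold change was -0.081 in Male against Female and -0.19 in KD against WT, against 0.011 and 0.012 over all tested genes. In both comparisons the CPM of the groups did not overlap for any of the 9, as was the case for 58.3% and 46.8% of all tested genes. In these bulk samples, fewer cells that make a transcript and less RNA per cell cannot be told apart.

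**Figure D1:**
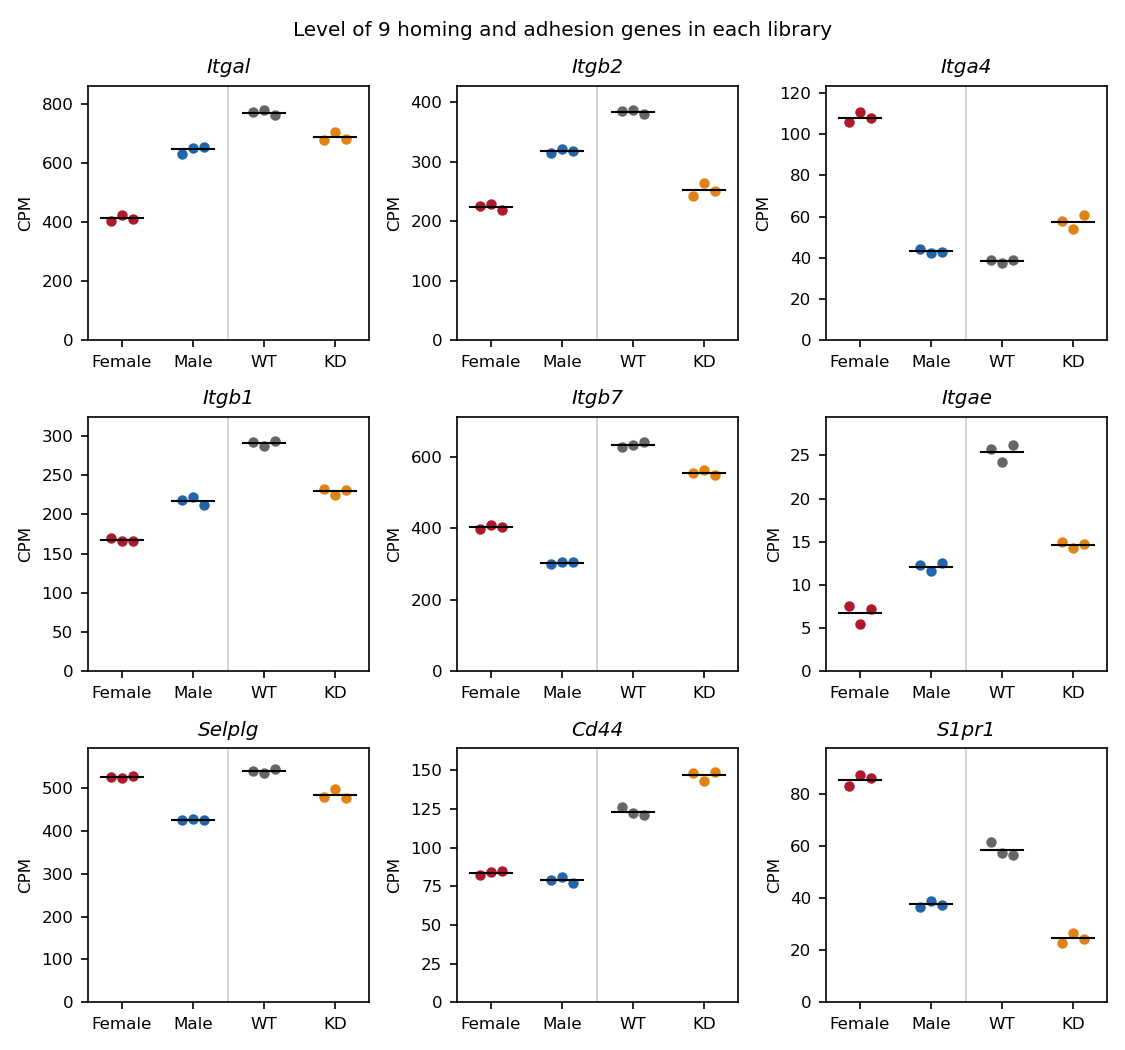
Level of each gene in CPM (vertical axes, starting at 0) in the 3 libraries of each group (points) with the group mean (black line). The grey line separates the tables, which were scaled separately. Itga4 and S1pr1 are highest in Female, and Itgal, Itgb1, Itgb2, Itgb7, Itgae and Selplg are highest in WT.

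The subunits of LFA-1 were both higher in Male and both lower in KD. Itgal, the αL chain (chromosome 7, 127296260 to 127335138, plus strand), was at 403, 426 and 411 CPM in the Female libraries and 633, 652 and 655 CPM in the Male libraries. It was at 773, 778 and 761 CPM in WT and 677, 705 and 681 CPM in KD. Each Male library stood above each Female library, and each KD library below each WT library. The log2 fold change of Itgal was 0.65 for Male against Female (SE 0.024, edgeR adjusted p 7.35e-09) and -0.17 for KD against WT (SE 0.019, edgeR adjusted p 8.00e-05).

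Itgb2, the β2 chain shared by the leukocyte integrins (chromosome 10, 77530252 to 77565708, plus strand), was at 226, 230 and 219 CPM in Female and 316, 322 and 319 CPM in Male. In the other table it was at 385, 387 and 381 CPM in WT and 243, 264 and 252 CPM in KD. All KD libraries were below WT (log2 fold change -0.61, SE 0.028, edgeR adjusted p 1.44e-07). Male was higher than Female by 0.50 on the log2 scale (SE 0.023, edgeR adjusted p 3.21e-08).

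The α4 chain and its β1 partner moved in opposite directions in each comparison. Itga4 (chromosome 2, 79255426 to 79333123, plus strand) was at 106, 110.5 and 108 CPM in the Female libraries and 44.1, 42.4 and 42.9 CPM in the Male libraries. The Male level was 39.9% of the Female level (log2 fold change -1.32, SE 0.028, edgeR adjusted p 1.86e-10). A larger absolute change was found in 4.92% of the tested genes. In WT the libraries held 38.9, 37.5 and 39.1 CPM and in KD 58.1, 53.8 and 60.6 CPM. KD was thus 1.49-fold higher than WT (log2 fold change 0.58, SE 0.046, edgeR adjusted p 5.75e-06). Exons of Itga4 share 1124 bases with exons of Cerkl on the other strand, and counting by strand was not stated. Cerkl averaged between 1.96 and 5.32 CPM in the 4 groups, below Itga4 in each. It was also lower in Male (log2 fold change -0.55, SE 0.14, edgeR adjusted p 0.00858) and was not called in KD (edgeR adjusted p 0.856), and its part in the Itga4 counts was not tested.

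Itgb1, the β1 chain (chromosome 8, 128685654 to 128733200, plus strand), was at 170, 166 and 165 CPM in Female and 218, 222 and 212 CPM in Male. It was at 291, 287 and 293 CPM in WT and 232, 224 and 231 CPM in KD. Male was above Female in all libraries (log2 fold change 0.38, SE 0.024, edgeR adjusted p 3.92e-07), and KD was below WT (-0.34, SE 0.021, edgeR adjusted p 8.01e-07).

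Itgb7, the β7 chain that pairs with α4 or αE (chromosome 15, 102215995 to 102231944, minus strand), was lower in Male and lower in KD. It was at 399, 409 and 403 CPM in Female and 299, 306 and 306 CPM in Male. The WT libraries held 628, 633 and 642 CPM and the KD libraries 555, 563 and 551 CPM. The Male level was 75.3% of Female (log2 fold change -0.41, SE 0.019, edgeR adjusted p 4.67e-08). The KD level was 87.7% of WT (log2 fold change -0.19, SE 0.017, edgeR adjusted p 1.30e-05).

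The DNA upstream of these chains is shown because α4 and its alternative partners β7 and β1 did not change alike. RefSeq sequences (GRCm38.p6) were given for 4 of the 9 genes, Cd44 being the other, and are printed from 5′ to 3′ up to the base before the annotated gene. Capitals mark the KLF-type letters CACCC and the RUNX-type letters TGTGGT, on either strand, which overlap at 1 place in Itga4. The windows are chr2:79255176-79255425 (plus strand) for Itga4, chr15:102231945-102232185 (minus strand) for Itgb7 and chr8:128685404-128685653 (plus strand) for Itgb1.
Itga4: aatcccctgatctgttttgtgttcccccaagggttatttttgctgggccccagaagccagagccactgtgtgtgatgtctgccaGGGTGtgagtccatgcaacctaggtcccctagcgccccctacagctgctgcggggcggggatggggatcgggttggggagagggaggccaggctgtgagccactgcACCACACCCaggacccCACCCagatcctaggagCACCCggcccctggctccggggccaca
Itgb7: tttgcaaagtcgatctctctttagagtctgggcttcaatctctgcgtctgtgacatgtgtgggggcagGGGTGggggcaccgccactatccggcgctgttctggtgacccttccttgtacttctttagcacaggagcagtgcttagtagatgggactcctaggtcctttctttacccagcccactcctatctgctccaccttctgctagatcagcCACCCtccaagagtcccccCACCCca
Itgb1: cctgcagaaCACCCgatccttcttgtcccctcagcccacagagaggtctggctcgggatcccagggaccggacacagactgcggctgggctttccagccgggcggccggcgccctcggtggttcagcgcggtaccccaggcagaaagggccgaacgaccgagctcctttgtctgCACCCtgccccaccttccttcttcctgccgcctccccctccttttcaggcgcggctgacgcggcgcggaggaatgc

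The Itga4 window held 4 matches to CACCC and 1 to TGTGGT, the Itgb7 window 3 and 0, and the Itgb1 window 2 and 0. Among 32851 RefSeq windows of 250 upstream bases, 52.0% held CACCC and 14.0% held TGTGGT. The ETS-type letters CCGGAA, found in 12.0% of such windows, were in none of the 3. The corresponding Cd44 window held none of these letter runs. Other letters were searched for on both strands too. These were the GC box of SP1 as GGGCGG (in 32.7% of all windows), the box named after its letters CCAAT (33.8%), the TATA box as TATAAA (12.4%), the MYC E-box as CACGTG (6.02%), the AP-1 motif as TGANTCA (6.75%) and the SMAD palindrome as GTCTAGAC (0.167%). Of these, GGGCGG occurred 1 time each in Itga4 and Itgb1, and the others were in none of the 4 windows. These matches describe the letters only, and binding was not measured here.

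Itgae, the αE chain also known as CD103 (chromosome 11, 73090583 to 73147446, plus strand), had the lowest CPM of the set in every group. It was at 7.57, 5.45 and 7.27 CPM in Female and 12.3, 11.6 and 12.6 CPM in Male. Male was 1.80-fold higher (log2 fold change 0.84, SE 0.12, edgeR adjusted p 0.000132). WT held 25.8, 24.2 and 26.2 CPM and KD 14.97, 14.3 and 14.7 CPM. The KD level was 57.7% of WT (log2 fold change -0.79, SE 0.048, edgeR adjusted p 7.80e-07). Male and KD were apart from their comparison groups in all libraries, although Female replicate 2 lay below the other Female libraries. Foxp3, a marker of regulatory T cells, had the same directions, at 2.82 CPM in Female, 4.38 in Male, 2.65 in WT and 1.46 in KD (log2 fold changes 0.63 and -0.86, edgeR adjusted p 0.0208 and 0.00243), and its part in the Itgae differences was not tested. Cd4 and Zbtb7b, both listed as CD4 T cell markers though at very different levels, went the other way in Male. Cd4 went from 0.182 CPM in Female to 0 in Male, and Zbtb7b from 85.1 to 51.6 CPM (edgeR adjusted p 0.000843 and 2.69e-08). Between KD and WT, Zbtb7b was not called (edgeR adjusted p 0.131) and Cd4 did not pass the low-count filter. The mitotic kinase gene Haspin lies inside Itgae on the other strand and shares 0 exon bases with it. Haspin averaged 37.1 and 36.0 CPM in Female and Male and 35.8 and 36.2 CPM in WT and KD, and it did not pass the test in either comparison (edgeR adjusted p 0.449 and 0.820).

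Selplg, which encodes the selectin ligand PSGL-1 (chromosome 5, 113818536 to 113832644, minus strand) was at 526, 523 and 527 CPM in Female and 424, 426 and 425 CPM in Male. It was at 540.0, 534 and 543 CPM in WT and 479, 496 and 476 CPM in KD. PSGL-1 transcripts were thus lower in Male (log2 fold change -0.30, SE 0.016, edgeR adjusted p 8.50e-08), and lower in KD (-0.16, SE 0.020, edgeR adjusted p 0.000145).

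Cd44, a marker of antigen-experienced T cells (chromosome 2, 102811141 to 102901665, minus strand), was at 82.1, 84.1 and 85.1 CPM in Female and 79.4, 81.3 and 76.9 CPM in Male. Its difference (log2 fold change -0.081, SE 0.028, edgeR adjusted p 0.0365) was the smallest of the set, and 85.7% of tested genes changed more. That call was lost with protein-coding genes only (edgeR adjusted p 0.40), with a minimum mean log2 CPM of 1 (0.0933) and at a threshold of 0.01. It was lost also without Female replicate 2, Female replicate 3, Male replicate 1 or Male replicate 3 (edgeR adjusted p 0.0855, 0.119, 0.0671 and 0.133). Over all alternatives its adjusted p ran from 0.00932 to 0.40. In the electroporated cells Cd44 was at 126, 122 and 121 CPM in WT and 148, 143 and 149 CPM in KD. KD was 1.19-fold higher there (log2 fold change 0.25, SE 0.027, edgeR adjusted p 4.66e-05).

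S1pr1, the egress receptor (chromosome 3, 115710433 to 115715072, minus strand), was lower by more than 1 log2 unit in both comparisons. The Female libraries held 83.2, 87.2 and 86.1 CPM and the Male libraries 36.5, 39.0 and 37.6 CPM. In WT it was at 61.6, 57.5 and 56.8 CPM and in KD at 22.9, 26.6 and 24.3 CPM. Male was at 44.1% of Female (log2 fold change -1.18, SE 0.033, edgeR adjusted p 1.23e-09) and KD at 42.0% of WT (log2 fold change -1.25, SE 0.057, edgeR adjusted p 1.16e-07). A larger absolute change was found in 6.51% of genes tested between Male and Female and in 3.59% of those tested between KD and WT.

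Set side by side, the 4 genes Itgal, Itgb2, Itgb1 and Itgae rose in Male and fell in KD. Itga4 and Cd44 did the opposite. The other 3 (Itgb7, Selplg and S1pr1) were lower in Male and in KD. All 9 were called in both comparisons, as were 25.7% of the 19529 genes tested in both, again genes of all levels. Of those 5013 genes, 55.1% moved in opposite directions, so 6 of 9 is not read as a feature of this set. The comparisons share no library. Changes of at least 1 log2 unit were found for Itga4 and S1pr1 in Male, against 7.28% of all genes tested there, and for S1pr1 in KD, against 3.96%.

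**Figure D2:**
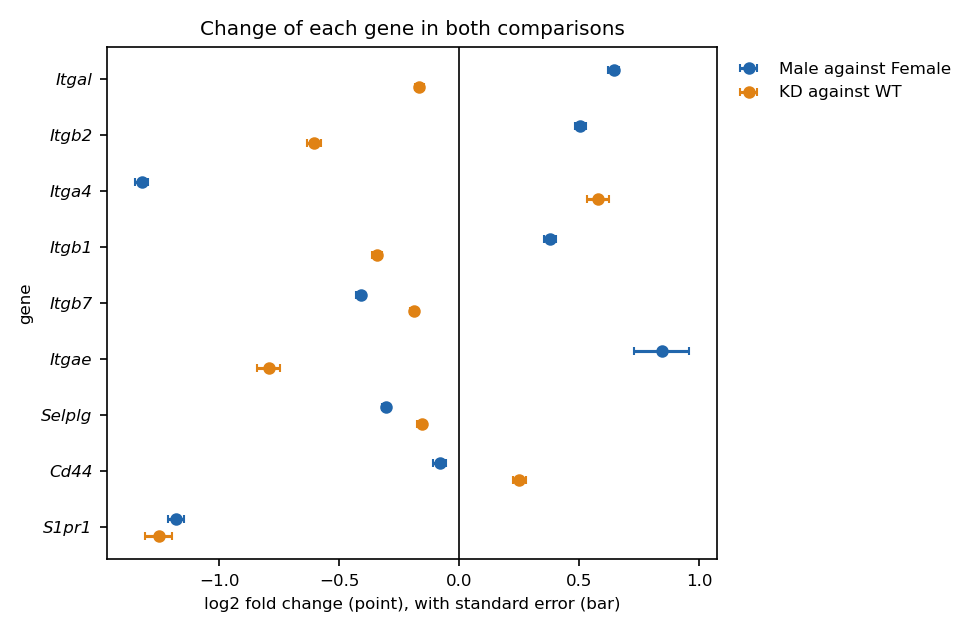
Log2 fold change of each gene (horizontal axis) in Male against Female (blue) and KD against WT (orange), with standard errors as bars. Itga4 is at -1.32 and 0.58, Itgae at 0.84 and -0.79, and S1pr1 at -1.18 and -1.25.

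Because an integrin needs both chains, the ratio of partner transcripts was taken within each library, after division by exon length. Such a ratio does not depend on library scaling, and it says nothing of protein. Itga4 relative to Itgb1 was 0.189 in Female and 0.0579 in Male, a difference of -1.70 on the log2 scale (SD 0.050 in Female and 0.049 in Male, n = 3 each). In WT the ratio was 0.0387 and in KD 0.0732, a difference of 0.92 (SD 0.018 and 0.066, n = 3 each). Relative to Itgb7, Itga4 was at 0.053 in Female and 0.0281 in Male, and at 0.012 in WT and 0.0205 in KD. The α4 transcript was therefore the scarcer one beside either beta chain in all 4 groups.

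The αE chain shifted the other way in both comparisons. The ratio of Itgae to Itgb7 was 0.010 in Female and 0.0241 in Male, which was 2.41-fold higher, and 0.0242 in WT and 0.0159 in KD, which was 0.658 of WT. With the union of exons as length, the ratio of Itgal to Itgb2 was 0.855 in Female, 0.942 in Male, 0.931 in WT and 1.26 in KD. That union was 6569 bases for Itgal and 3052 for Itgb2, and the longest transcripts were 5222 and 2970 bases. Whether a ratio lies above 1 depends on that choice, and the fold difference between groups does not. The beta chains that compete for α4 also shifted: Itgb7 over Itgb1 was 3.56 in Female, 2.06 in Male, 3.22 in WT and 3.58 in KD.

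In each of these 10 comparisons the groups did not overlap. The exact two-sided permutation p was 0.1 in every case, also after Benjamini-Hochberg adjustment over the 10, which is the smallest value that 3 against 3 libraries allow.

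**Figure D3:**
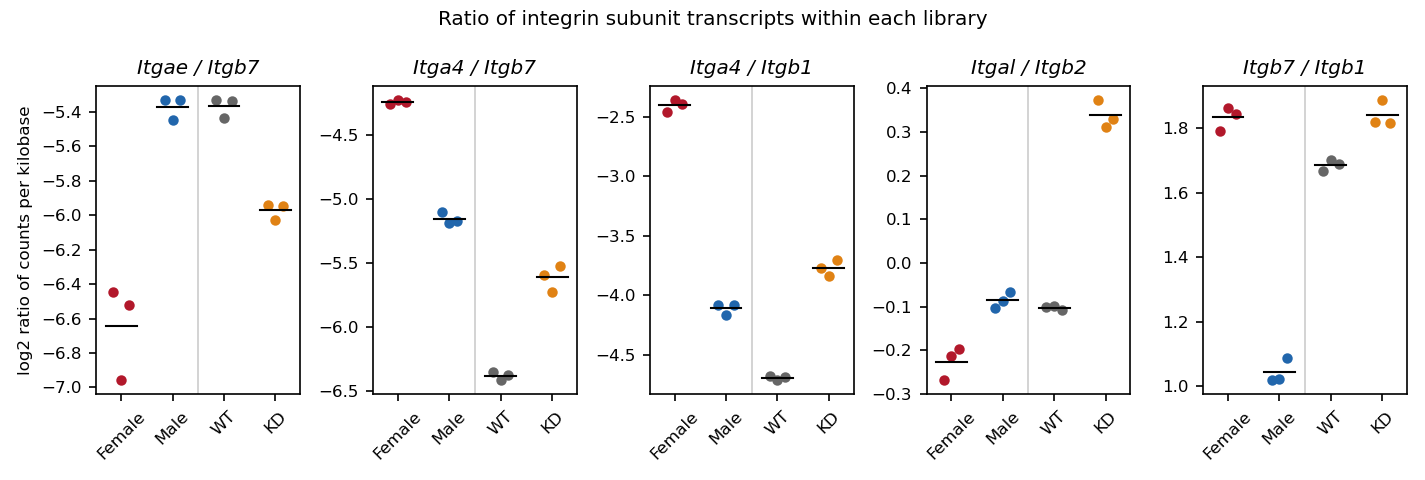
Log2 ratio of counts per kilobase of exon between integrin chains (vertical axes, different ranges, not starting at 0) in each library (points) with group means (black lines). Itga4 over Itgb1 is highest in Female and lowest in WT, and Itgal over Itgb2 is highest in KD. The position relative to 0 depends on the exon lengths used.

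Levels of different genes were compared as RPKM, that is CPM per kilobase of exon, with the union of exons as length. The order depends on that choice. For Selplg the union was 4272 bases and the longest transcript 2314, against 2770 and 2683 for Itgb7. By the union of exons, Itgb7 was the most abundant of the set in every group, from 109.7 RPKM ± 1.42 (SD, n = 3) in Male to 229 RPKM ± 2.63 (SD, n = 3) in WT. Selplg, Itgb2 and Itgal followed in places 2 to 4 and Itgb1 in place 5 in every group. Selplg and Itgal in Male, at 99.5 and 98.4 RPKM, overlapped between libraries, as did Selplg and Itgb2 in WT, at 126.2 and 126.0 RPKM. S1pr1 and Cd44 also overlapped in Male, at 12.4 and 11.7 RPKM, and in WT, at 19.2 and 18.2 RPKM. S1pr1 was above Cd44 in Female, at 28.1 against 12.4 RPKM, and below it in KD, at 8.07 against 21.6 RPKM. Itga4 and Itgae took the last places, with Itga4 above Itgae in Female, Male and KD and below it in WT, at 2.75 against 5.54 RPKM.

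Across the tables, which were scaled separately and come from different batches, WT was the group with the highest mean CPM for 6 genes: Itgal, Itgb1, Itgb2, Itgb7, Itgae and Selplg. Female was highest for Itga4 and S1pr1, and KD for Cd44. In this ordering of 4 groups, no neighbouring groups overlapped for any gene of the set. The share of all tested genes without such overlap was not computed for this ordering, so the lack of overlap is not read as a feature of the set. Batch and electroporation cannot be told apart between the tables.

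Other genes of the same processes were read from 7 lists, with 162 matched genes beside the 9. Of 144 tested between Male and Female, 48 were higher and 56 lower in Male, with a median log2 fold change of -0.014. Of 143 tested between KD and WT, 19 were higher and 74 lower in KD, with a median of -0.23. Over all tested genes, the share called higher was 23.5% in Male and 16.8% in KD, and the share called lower was 26.3% and 18.4%.

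The sphingosine 1-phosphate circuit held 9 genes lower and 3 higher in Male among 19 tested (median -0.29), and 8 lower and 2 higher in KD among 20 tested (median -0.24). Klf2, a transcription factor known to drive S1pr1, was at 87.2, 86.0 and 79.2 CPM in Female and 32.3, 32.7 and 31.9 CPM in Male. It fell with S1pr1 there (log2 fold change -1.38, SE 0.039, edgeR adjusted p 1.22e-09). In WT it was at 32.3, 33.5 and 33.2 CPM and in KD at 36.2, 36.9 and 33.0 CPM, which overlapped, and the log2 fold change of 0.10 did not pass the test (edgeR adjusted p 0.143). S1pr1 fell in KD, where Klf2 was not called, and the part of Klf2 in the S1pr1 differences was not tested.

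Cd69, an early activation antigen that pulls S1PR1 off the surface, rose in Male, from 85.2, 77.4 and 80.2 CPM in Female to 169, 169 and 164 CPM. It fell in KD, from 131, 134 and 134 CPM in WT to 70.7, 70.0 and 68.1 CPM. Its log2 fold changes were 1.05 (SE 0.035, edgeR adjusted p 3.52e-09) and -0.93 (SE 0.027, edgeR adjusted p 6.02e-09). S1pr4, a second receptor of the lipid, was lower in both comparisons, with -0.99 and -0.39 (edgeR adjusted p 2.89e-09 and 8.30e-05). Foxo1, a regulator of Klf2, was lower too, with -0.47 and -0.26 (edgeR adjusted p 5.26e-08 and 2.16e-05). S1pr5 averaged at most 0.174 CPM in any group and did not pass the test in either comparison (edgeR adjusted p 0.830 and 0.836).

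Among counter-receptors and selectins, 7 were higher and 5 lower in Male of 21 tested, and 5 were higher and 7 lower in KD of 20 tested, with medians of 0.11 and -0.18. Cdh1, which encodes the αEβ7 ligand E-cadherin, followed the direction of Itgae. Its libraries held 2.18, 2.55 and 1.92 CPM in Female and 7.86, 7.81 and 8.77 CPM in Male, and 59.1, 56.0 and 58.8 CPM in WT and 21.7, 21.4 and 21.4 CPM in KD. The log2 fold changes were 1.88 (SE 0.13, edgeR adjusted p 5.98e-07) and -1.43 (SE 0.037, edgeR adjusted p 3.60e-09). Icam1, a ligand of LFA-1, did not pass the test in either comparison, with log2 fold changes of -0.010 and -0.024 (edgeR adjusted p 0.825 and 0.628).

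Integrin activation genes, which couple the chains to the cytoskeleton, were split in Male with 11 higher and 12 lower of 28 tested (median 0.010). In KD 21 of the same number were lower and 2 higher (median -0.25). Tln1 and Fermt3, encoding talin and kindlin-3 that bind beta chain tails, went in the same directions as Itgb2. Tln1 had log2 fold changes of 0.30 and -0.13 (edgeR adjusted p 8.92e-07 and 9.68e-05) and Fermt3 of 0.21 and -0.34 (edgeR adjusted p 1.81e-05 and 2.81e-07). The second talin gene Tln2, at 0.962 to 4.58 CPM on average, went the other way, with -1.20 and 1.97 (edgeR adjusted p 0.000125 and 1.21e-05). Rap1b, a GTPase upstream of talin, had 0.013, which was not called, and -0.51 (edgeR adjusted p 0.637 and 1.95e-07). Ptk2b, a kinase downstream of integrins, had 0.18 and -0.44 (edgeR adjusted p 0.000104 and 3.45e-07). Flna, a filamin that binds beta tails, had 0.76 and -0.14 (edgeR adjusted p 3.32e-09 and 4.31e-05). Stk4, the MST1 kinase, was lower in both, with -0.52 and -0.28 (edgeR adjusted p 1.35e-08 and 1.46e-06).

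Genes for selectin ligand synthesis held 13 higher and 9 lower in Male of 24 tested (median 0.18), and 4 higher and 11 lower in KD (median -0.10). Fut7, the fucosyltransferase that completes the selectin ligand on PSGL-1, was not called in either comparison (log2 fold changes -0.17 and -0.090, edgeR adjusted p 0.122 and 0.526). Gcnt1, the branching enzyme of the same glycan, had 0.37 and 0.046 (edgeR adjusted p 0.0182 and 0.546). The galactosyltransferase genes differed from each other: B4galt5 had 1.11 and -0.70 (edgeR adjusted p 6.62e-10 and 1.41e-07), and B4galt1 had -0.67 and -0.44 (edgeR adjusted p 5.93e-09 and 7.88e-07). St3gal1, a sialyltransferase, was lower in Male at -1.16 (edgeR adjusted p 1.48e-09) and not called in KD (-0.096, edgeR adjusted p 0.307). Spn, which encodes CD43, had 0.52 and -0.17 (edgeR adjusted p 1.87e-08 and 4.28e-05).

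The list of CD44 shedding enzymes and cytoskeletal linkers held 5 higher and 3 lower in Male of 14 tested (median 0.16), and 1 higher and 7 lower in KD of 12 tested (median -0.13). Msn, encoding moesin that links CD44 to actin, had log2 fold changes of 0.54 and -0.11 (edgeR adjusted p 1.14e-09 and 0.000134). Ezr, its relative ezrin, had 0.10 and -0.33 (edgeR adjusted p 0.000972 and 3.84e-07). Adam8, a membrane protease, had 0.98 and -0.83 (edgeR adjusted p 3.61e-09 and 5.22e-09). Nf2, whose product merlin binds CD44, had the same directions as Cd44, with -0.20 and 0.17 (edgeR adjusted p 5.91e-05 and 0.000902).

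Residency genes and TGF-β regulators of Itgae held 5 higher and 13 lower in Male of 22 tested (median -0.27), and 1 higher and 14 lower in KD (median -0.41). Runx3, a factor that promotes Itgae in CD8 cells, was lower in both comparisons, at -0.36 and -0.67 (edgeR adjusted p 1.04e-07 and 1.55e-08). Itgae rose in Male and fell in KD, and the part of Runx3 in the Itgae differences was not tested. Tgfbr2, a receptor chain for TGF-β, was not called in Male (-0.051, edgeR adjusted p 0.0933) and fell in KD (-0.52, edgeR adjusted p 3.69e-08). Smad3, which carries the TGF-β signal, was lower in both, at -0.21 and -0.62 (edgeR adjusted p 0.00027 and 2.88e-07). Tgfb3, encoding a ligand of this pathway, followed Itgae, with 1.25 and -1.63 (edgeR adjusted p 2.22e-06 and 3.70e-09). Prdm1 was the 1 gene of this list called higher in KD. It averaged 37.8 CPM in Female, 21.7 in Male, 28.1 in WT and 33.9 in KD. Its log2 fold changes were -0.80 and 0.27 (edgeR adjusted p 1.30e-06 and 0.0051).

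**Figure D4:**
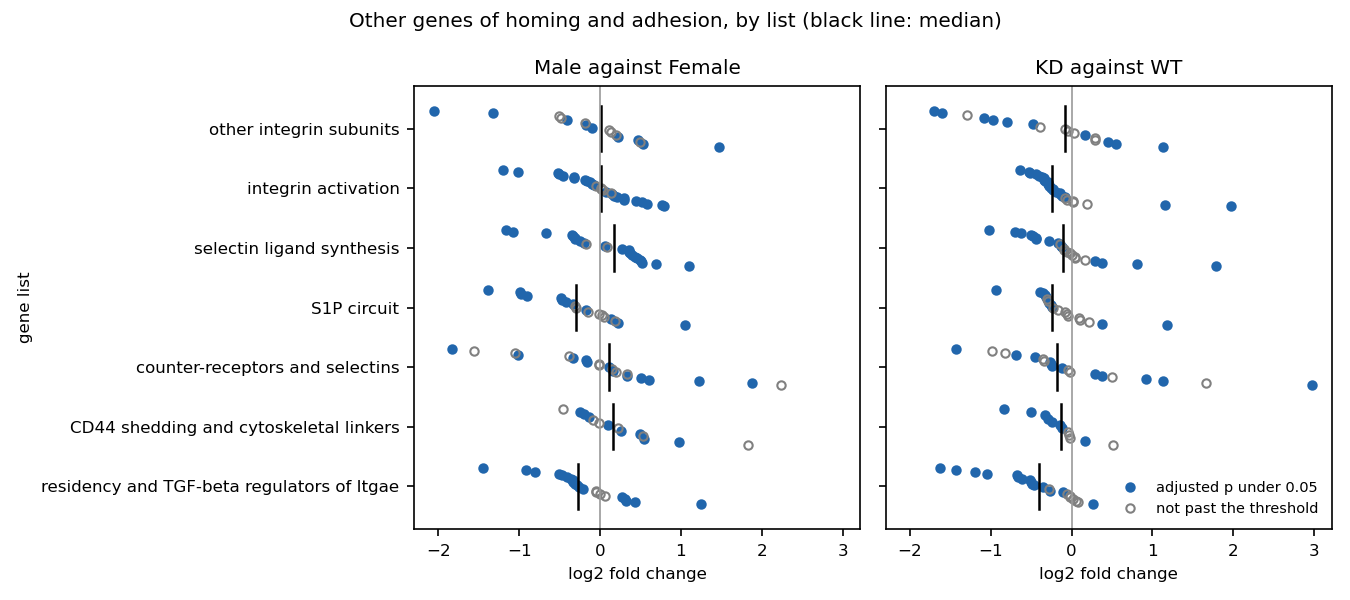
Log2 fold change of each tested gene (points) in 7 lists (rows) for Male against Female (left) and KD against WT (right), with filled points for an edgeR adjusted p under 0.05 and a black line at the list median. In KD the integrin activation list has 21 genes lower and 2 higher.

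The genes whose pattern was most like that of each member were found by Pearson correlation of log2 CPM over the 12 libraries, after each table's mean was subtracted, among 12479 genes. The libraries fall into groups, so a high value mainly says that a gene has the same proportion of both group differences, and 48 to 549 genes exceeded 0.95 for a given member. For Itga4 the nearest were Fam102b and Nr3c1, the glucocorticoid receptor (r = 0.998 and 0.996). For Itgal they were Txnrd1 and Hk2, a hexokinase (0.998 and 0.997), for Itgb1 Ifih1 and Cd69 (0.996 and 0.995), and for Itgb2 Hip1 and Ccar2 (0.996 for both). For Itgb7 they were Kif21b and Ifnar1, an interferon receptor chain (0.998 and 0.996), and for Itgae Dnaja2 and Dusp6, a phosphatase of ERK (0.988 and 0.985). For S1pr1 they were Eef2 and Rasa3 (0.997 and 0.996), for Selplg Unc119b and Nipal3 (0.997 for both), and for Cd44 Mga and Gm9761 (0.978 and 0.975). Within the set, Itgb7 and Selplg were the most alike pair (r = 0.993), and Itga4 and Itgal the most opposed (r = -0.982).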

How the data were processed

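Counts per gene were used as the authors deposited them, in 2 tables of whole numbers with 6 libraries each. Libraries were stranded total RNA with ribosomal depletion, per the labels' protocols. HISAT2, StringTie, DESeq2, bcl2fastq 2.20.0 and mm10 are named in the submitters' processing notes, without their roles. Which annotation was counted, and whether by strand, is not given in the sources used here.

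Identifiers were matched to GENCODE M21 (55227 of 55487). Of the members' 31-base subsequences, at most 8.85% (Itga4) were shared with another gene. Each table was fitted separately with edgeR 4.0.16 in R 4.3.3 (TMM, filterByExpr, quasi-likelihood test, Benjamini-Hochberg adjustment over all tested genes, threshold 0.05). Standard errors are the absolute log2 fold change over the square root of F. CPM used TMM-scaled library sizes, and RPKM divided these by the union of exons. Correlations used log2 of CPM plus 0.5. On simulated counts with 200 genes changed by 1 log2 unit, the test recovered 63.5% of them in the table of Male and Female (20208 genes) and 62% in that of WT and KD (20413 genes), and 100% of those with a mean of at least 1000 counts. False calls made up 8.63% and 12.1% of all calls, above the 5% aimed at.

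The members and lists were chosen with earlier results of these data known. Named genes were the members, Kdm5d, genes overlapping members, 12 fixed partners, up to 3 genes with the smallest p per list and direction, and the 2 genes most like each member. Some genes so chosen are covered by their list counts alone, and 1 of the fixed partners is not reported here. Foxo1, Smad3, Itga1 and the single markers of other cells fell outside the rule and were named after their values were seen. Alternatives covered normalization, filter, test (DESeq2 1.42.0, limma 3.58.1 voom), threshold, thinning, counts divided by 4, protein-coding genes, all 12 libraries in one fit, the replicate number as a block and leaving out each replicate.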

Additional observations from a re-analysis of the deposited data

How the results depend on the processing

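All 9 genes kept their direction in both comparisons under the 12 alternative settings and in the 6 fits that each left out 1 library. Apart from Cd44 between Male and Female, whose call is described above, each gene also stayed past the threshold in all of them. Between Male and Female 8 or 9 members were called, and between KD and WT 9 throughout. Partner genes called ran from 95 to 108 and from 85 to 96 over the settings, and from 98 to 105 and 88 to 92 without 1 library. The widest range of a member without 1 library was that of Itgae in Male against Female, from 0.71 to 0.92 on the log2 scale. With protein-coding genes only, the log2 fold changes of Male against Female were higher by about the same amount for each member, so that Cd44 stood at -0.027. The subunit ratios kept their direction when 1 library was left out. The replicate block and the longest transcript as length cannot alter the difference of a ratio between groups, so those 2 runs could not test its direction. The exact p of the ratios lay between 0.1 and 0.25, none of which could pass the threshold at this sample size. Replicates carry the numbers 1 to 3 in each group, and nothing states what same-numbered libraries share. Their deviations from the group means correlated between -0.0562 and 0.0312 in the table of Female and Male and between -0.0748 and 0.0274 in that of WT and KD, and not every library correlated best with its own number. With the replicate number as a block, 9740 genes instead of 10067 were called between Male and Female, and 6688 instead of 7171 between KD and WT, and the block kept all 9 members called in both. The lowest count of a member in any library was 512, for Itgae in Female, where its highest was 707. Full recovery in the simulation was seen for genes with a mean of at least 1000 counts. S1pr5 and other genes near 0.1 CPM rest on few counts.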

Other observations

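Integrin chains outside the set also differed between groups. Of 16 tested between Male and Female, 4 were higher and 5 lower in Male, with a median log2 fold change of 0.0073, and of 17 tested between KD and WT, 4 were higher and 6 lower in KD, with a median of -0.084. Itgav and Itgb3, the chains of a vitronectin receptor, were both lower in KD, from 255 to 184 CPM and from 146.5 to 74.6 CPM (log2 fold changes -0.48 and -0.97, edgeR adjusted p 5.87e-07 and 9.19e-09). In Male, Itgav was higher (0.22, edgeR adjusted p 1.67e-05) and Itgb3 lower (-0.095, edgeR adjusted p 0.0154). Itga1, the collagen-binding chain CD49a that marks resident T cells, was at 6.39 CPM in WT and 1.96 CPM in KD (log2 fold change -1.71, SE 0.12, edgeR adjusted p 2.32e-06), and was not called between Male and Female (-0.50, edgeR adjusted p 0.0698). Itga6, a laminin-binding chain, was lower in Male (-0.41, edgeR adjusted p 5.03e-06) and higher in KD (0.17, edgeR adjusted p 0.00322), the same directions as Itga4. Itga2b, a platelet chain, was at 4.62 to 5.59 CPM in Female and 0.961 to 1.44 CPM in Male, and moved with the platelet genes Pf4 and Ppbp given above.

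Among residency genes, Cxcr6, a chemokine receptor of tissue T cells, averaged 26.6 CPM in Female, 32.2 in Male, 129 in WT and 47.9 in KD (log2 fold changes 0.28 and -1.43, edgeR adjusted p 6.32e-05 and 3.69e-09). Rgs1, which dampens chemokine signals, was lower in both comparisons (-0.91 and -0.67, edgeR adjusted p 5.52e-08 and 3.00e-05). Prdm1 of the same list, given above, was higher in KD. The CD8 T cell markers themselves were called in part: 2 higher and 5 lower of 10 in Male, and 1 higher and 6 lower in KD, with medians of -0.076 and -0.11. Of the 29 markers of other cells, 13 were tested between Male and Female, with 2 higher and 4 lower in Male, and 12 between KD and WT, with 1 higher and 5 lower in KD.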
